A study of Homo sapiens with 8 samples.

Results

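The genes followed belong to the insulin and insulin-like growth factor (IGF) axis: the receptors INSR, IGF1R and IGF2R, the adaptors IRS1 and IRS2, the binding proteins IGFBP1, IGFBP3, IGFBP4 and IGFBP6, and the transcription factor FOXO3. They were taken by gene symbol, each symbol matched a single row, and they are 10 of the 20263 genes in the deposited expression table. RNA had been sequenced from cultured MHCC-97H cells, an established line of human liver cancer kept in medium with serum. The cells had received lenvatinib at 40, 60, 80 or 100 µM (1 library per dose, 4 libraries) or DMSO, the solvent (4 libraries), for 24 hours. Lenvatinib inhibits the kinases of the VEGF and FGF receptors and of PDGFRA, KIT and RET. All libraries come from 1 line. Whether each came from a culture of its own is not in the labels, so p-values reflect the library-to-library spread, which could be technical. The 4 lenvatinib libraries differ in dose and are not replicates of 1 condition. Differences between doses count as spread in the tests of the arms and in the SD of that arm.

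Insulin and the IGFs bind INSR and IGF1R, receptor tyrosine kinases that phosphorylate IRS1 and IRS2. These adaptors recruit phosphoinositide 3-kinase and activate AKT, which keeps FOXO transcription factors out of the nucleus. IGF-binding proteins hold IGFs in the circulation and around cells and set how much ligand reaches the receptors. In liver, IGFBP1 and IRS2 are known FOXO targets that insulin represses.

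Libraries held 10181973 to 37384578 counts, the lowest being that at 60 µM. Most of their variance (84.8%, principal component 1) tracked how GC-rich the genes are. A library's GC slope is the change in log2 level, relative to the average library, for every 10 percentage points of GC content. It was 0.67, 1.94, -0.60 and -0.63 at 40, 60, 80 and 100 µM, and 0.27, -0.52, -1.02 and -0.12 in DMSO libraries 1 to 4. The 60 µM library thus stands apart in depth and in GC slope. Of the epithelial list, the keratins KRT8 and KRT18 were abundant in every library, while EPCAM and CDH1 had only 125 and 232 reads in all. Genes of the hepatocyte list summed to 0.844 to 3.82 TPM (the authors' length-scaled transcript levels) with lenvatinib and 6.20 to 17.5 TPM in DMSO, with the list's TTR at 0 reads throughout. The fibroblast and stellate list summed to 15.95 to 46.7 TPM with lenvatinib and 29.4 to 61.6 TPM in DMSO. The bulk libraries cannot tell fewer cells of a kind from less RNA per cell.

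With lenvatinib, transcripts of 4 of the 10 genes lay lower in every treated library than in any DMSO library. They were IGFBP1, IGFBP3, IGF1R and IGF2R, and none of the 10 genes lay higher in every treated library. Among all 11827 genes tested, 3.38% lay lower in this way, 3.08% higher, and 6.46% on either side. Levels here are CPM, counts relative to library size after TMM, edgeR's correction for library composition. The separation depends on the scaling for all but IGFBP1. With DESeq2 size factors the same 4 genes lay below (3.42% of all genes), whereas with library totals only (3.49%) and with the deposited TPM (4%) IGFBP1 alone did.

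**Figure D1:**
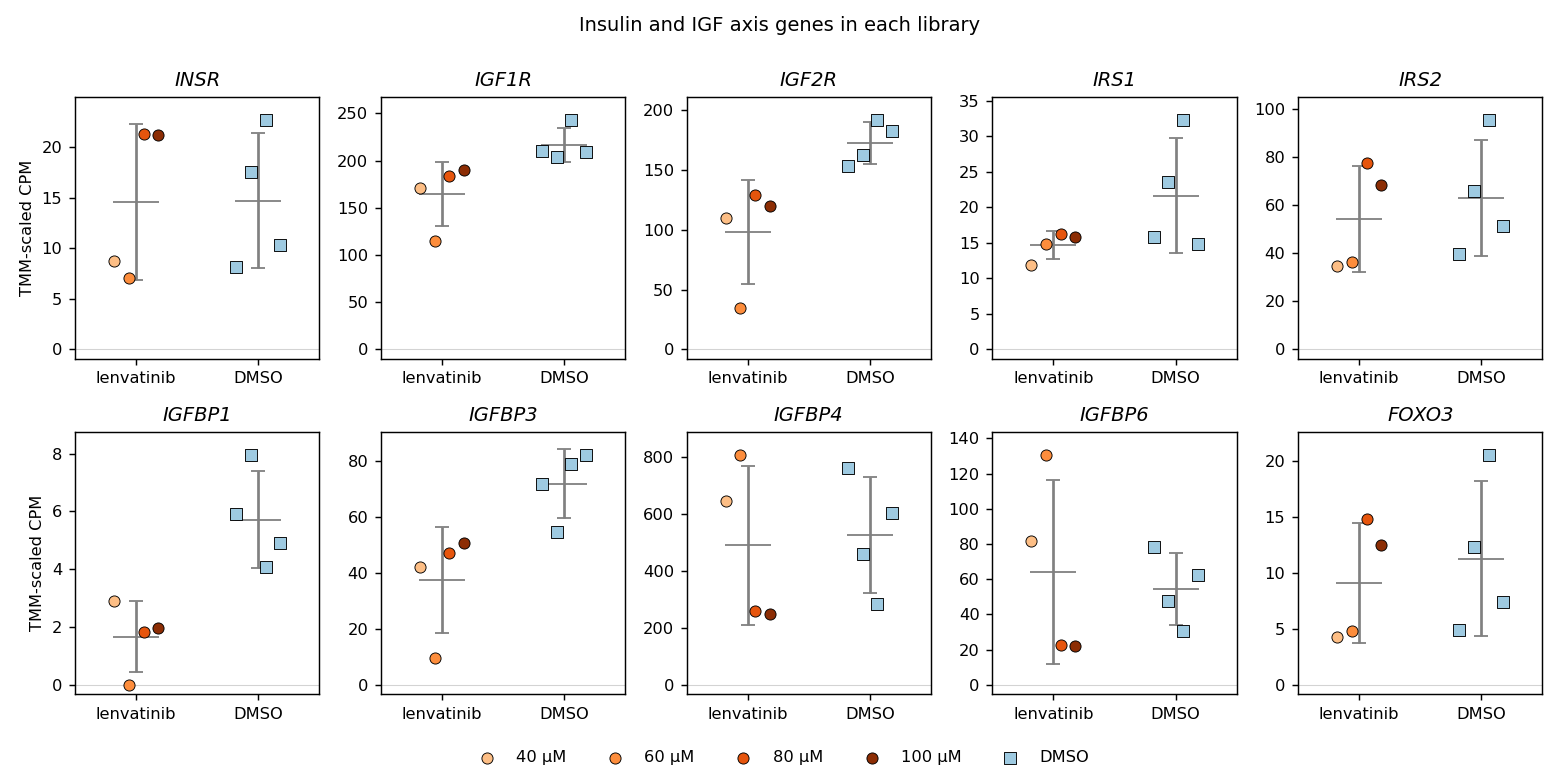
TMM-scaled CPM (vertical axes, from 0) of the 10 genes in the 4 lenvatinib libraries (circles, darker with dose) and the 4 DMSO libraries (squares), with the mean ± SD of each arm in grey. IGFBP1, IGFBP3, IGF1R and IGF2R show no overlap between arms, and the 80 and 100 µM circles of IGFBP4 and IGFBP6 lie below all squares while the 40 and 60 µM circles do not.

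None of the 10 genes passed in the test of the 4 lenvatinib against the 4 DMSO libraries. At a Benjamini-Hochberg adjusted p under 0.05, 0 of 11827 genes (0%) were called by edgeR's quasi-likelihood test. An unadjusted p under 0.05 was reached by 523 genes (4.42%), none of the 10 among them. DESeq2 called 94 genes and limma-voom 0, again with 0 of the 10. When the GC slope entered the model as a covariate, edgeR called 343 genes (2.9%), 174 of them lower (1.47%) and 169 higher (1.43%). An unadjusted p under 0.05 was then reached by 19.9% of all genes and by 4 of the 10 (IGF2R, IGFBP1, IGFBP4 and IGFBP6). Of the 10 genes IGFBP6 alone was called there, and it fell. Without the 60 µM library the same fit called 2768 genes (23.3%), and 7 of the 10: IGF1R, IGF2R, IGFBP1, IGFBP3, IGFBP4 and IGFBP6 fell, against 13.7% of all genes, and INSR rose, against 9.6%. Of the other libraries, leaving out 40 µM gave 985 genes and 3 of the 10, and leaving out 80 µM, 100 µM or any DMSO library gave 0 to 192 genes and 0 of the 10. With the 80 and 100 µM libraries alone against DMSO the fit called 20.6% of all genes and 5 of the 10, namely IGF2R, IRS1, IGFBP1, IGFBP4 and IGFBP6, all lower.

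**Figure D2:**
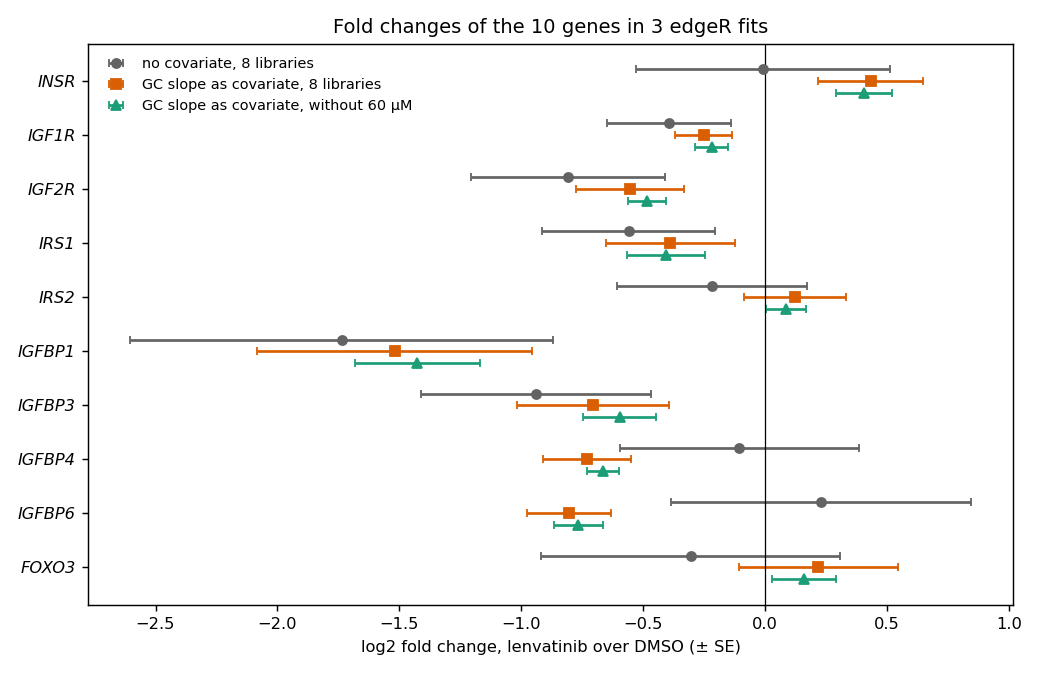
Log2 fold change, lenvatinib over DMSO (horizontal axis), with its SE, in the fit without a covariate (circles), with the GC slope as covariate (squares) and with the covariate but without the 60 µM library (triangles). The values of IGFBP1 lie between -1.74 and -1.43 in the 3 fits, while those of IGFBP4 and IGFBP6 lie at -0.11 and 0.23 without the covariate and at -0.73 and -0.81 with it.

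IGFBP1, a liver-secreted binding protein, had the lowest log2 fold change of the 10 in all 3 of these fits. It lies on the forward strand of chromosome 7 (ENSG00000146678, GRCh38, 45888357 to 45893668). It was measured at 2.91, 0, 1.82 and 1.95 CPM at 40, 60, 80 and 100 µM and at 5.91, 7.95, 4.06 and 4.91 CPM in DMSO libraries 1 to 4. The highest treated library thus stood below the lowest DMSO library. The raw counts were 68, 0, 87 and 86 with lenvatinib, against 163, 283, 169 and 165 in DMSO, and at 60 µM a count of 0 allows up to 3 counts, or 0.483 CPM. The arms averaged 1.67 ± 1.21 CPM with lenvatinib and 5.71 ± 1.68 CPM in DMSO (SD, n = 4 each). The log2 fold change was -1.74 ± 0.87 (SE; edgeR adjusted p = 0.874) without the covariate and -1.52 ± 0.57 (edgeR adjusted p = 0.186) with it. Without the 60 µM library, which holds the 0, it was -1.43 ± 0.26 (edgeR adjusted p = 0.00518). The summed hepatocyte markers given above were lower with lenvatinib as well, although ALB, APOA1, APOA2 and TF of that list had 6, 10, 7 and 4 reads at 60 µM and 0 in every other library. The leukocyte list was also lower, at 4.62 to 5.63 TPM with lenvatinib and 7.77 to 10.1 TPM in DMSO, with CD3E and PTPRC at 0. That sum is mostly CD68, which averaged 6.32 TPM over the 8 libraries, against 0.429 for CD14 and 0.345 for CD79A. CD14 had 6, 0, 19 and 26 reads at 40, 60, 80 and 100 µM and 13, 12, 18 and 14 in DMSO libraries 1 to 4. The part of what these lists measure in the IGFBP1 values was not tested.

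IGFBP3, the main carrier of IGFs in serum, lies 18576 bases from IGFBP1, on the opposite strand with the gene ends facing each other (ENSG00000146674, chromosome 7, 45912245 to 45921874). It was measured at 41.9, 9.50, 47.0 and 50.7 CPM at 40, 60, 80 and 100 µM, against 71.5, 54.4, 78.9 and 82.0 CPM in DMSO libraries 1 to 4. The arms did not overlap, although the 100 µM library and DMSO 2 were close. The log2 fold change was -0.94 ± 0.47 (SE; edgeR adjusted p = 0.874), and -0.71 ± 0.31 with the covariate (edgeR adjusted p = 0.254). Without the 60 µM library, where IGFBP3 was lowest, the GC-adjusted value was -0.60 ± 0.15 (edgeR adjusted p = 0.0246). The neighbours did not keep a fixed proportion: IGFBP1 had 0.0695, 0, 0.0387 and 0.0385 counts per IGFBP3 count at 40 to 100 µM and 0.0826, 0.146, 0.0515 and 0.0599 in DMSO libraries 1 to 4.

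IGFBP4 and IGFBP6, a binding protein that mainly restrains IGF action and one that prefers IGF2, differed from the other members in their GC content. Their longest transcripts hold 62.5% and 64.2% G and C, against 49.0% to 58.7% in the other 8 genes. IGFBP4 (ENSG00000141753, chromosome 17, 40443461 to 40457731) was measured at 643, 806, 259 and 249.3 CPM at 40, 60, 80 and 100 µM, against 760, 458, 284 and 603 CPM in DMSO libraries 1 to 4. IGFBP6 (ENSG00000167779, chromosome 12, 53097436 to 53102345) stood at 81.6, 131, 22.5 and 22.3 CPM in the lenvatinib libraries and at 78.3, 47.5, 30.4 and 62.2 CPM in DMSO. For both, the 80 and 100 µM libraries were below every DMSO library, with library totals and TPM as well. The 60 µM library was above every DMSO library, for IGFBP6 with all 4 scalings, but for IGFBP4 with TMM and DESeq2 size factors only. By library totals IGFBP4 at 60 µM had 492 CPM, against 649, 532, 376 and 592 CPM in DMSO libraries 1 to 4. Without the covariate the log2 fold changes were -0.11 ± 0.49 for IGFBP4 (SE; edgeR adjusted p = 0.936) and 0.23 ± 0.62 for IGFBP6 (edgeR adjusted p = 0.898).

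With the GC slope as covariate, IGFBP6 fell by 0.81 ± 0.17 on the log2 scale (SE; edgeR adjusted p = 0.0477). That call was lost when any of 6 libraries was left out. The edgeR adjusted p was then 0.306 without 80 µM and 0.277 without 100 µM. It was 0.156, 0.135, 0.0743 and 0.191 without DMSO 1, 2, 3 and 4, with log2 fold changes of -0.945 to -0.73 over all 8 leave-one-out fits. IGFBP4 had a GC-adjusted log2 fold change of -0.73 ± 0.18 (edgeR adjusted p = 0.0702), and the call was made without 40 µM (-0.84, edgeR adjusted p = 0.0216) or without 60 µM (-0.67, edgeR adjusted p = 4.69e-04). Within a library, where scaling cancels, IGFBP6 had 0.103 to 0.107 counts per IGFBP4 count in the 4 DMSO libraries. With lenvatinib this ratio was 0.127, 0.162, 0.0867 and 0.0893 at 40, 60, 80 and 100 µM, outside the DMSO range on both sides. The GC slope does not cancel in it. Per unit of GC slope, log2 CPM changed by 0.863 for IGFBP6 and 0.598 for IGFBP4. The part of the GC slope in this ratio was not tested.

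The deposited TPM, which take account of transcript length, allow levels to be set between genes. IGFBP4 was the most abundant of the 10 genes, at 309 ± 53.7 TPM with lenvatinib and 419 ± 63.3 TPM in DMSO (SD, n = 4 each). In DMSO it was followed by IGFBP6 (82.7 ± 11.1 TPM), IGFBP3 (59.7 ± 20.3), IGF1R (47.6 ± 26.4), IGF2R (25.4 ± 8.18), IRS2 (15.9 ± 10.2), IGFBP1 (6.50 ± 2.29), IRS1 (4.54 ± 2.90), INSR (4.27 ± 2.77) and FOXO3 (3.27 ± 2.77). IGFBP4 stood above IGFBP6 by 337 TPM, more than either SD, and IGFBP6 above IGFBP3 by 23.0 TPM, more than either SD but in 3 of the 4 DMSO libraries. From IGFBP3 down to IGFBP1 each gene stood above the next in all 4 DMSO libraries. The mean differences there were within the larger of the SDs of each pair. IGFBP1 stood above IRS1, and IRS1 above INSR, in 3 of 4 libraries, and INSR above FOXO3 in all 4. Summed over IGFBP1 to IGFBP7, binding protein transcripts made up 713, 561, 699 and 732 TPM at 40, 60, 80 and 100 µM and 887, 971, 860 and 911 TPM in DMSO libraries 1 to 4. IGFBP2 was listed at 0 in every library, IGFBP5 had 11 reads in all, and IGFBP7, which binds IGFs weakly, was the other abundant one. The sums did not overlap on TPM, but did on counts. They were 667 to 815 CPM with lenvatinib and 798 to 1024 CPM in DMSO by library totals, and 533 to 1093 CPM against 603 to 1199 CPM with TMM. IGFBP1 was 0% to 0.361% of the TPM pool with lenvatinib and 0.536% to 1.01% in DMSO.

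**Figure D3:**
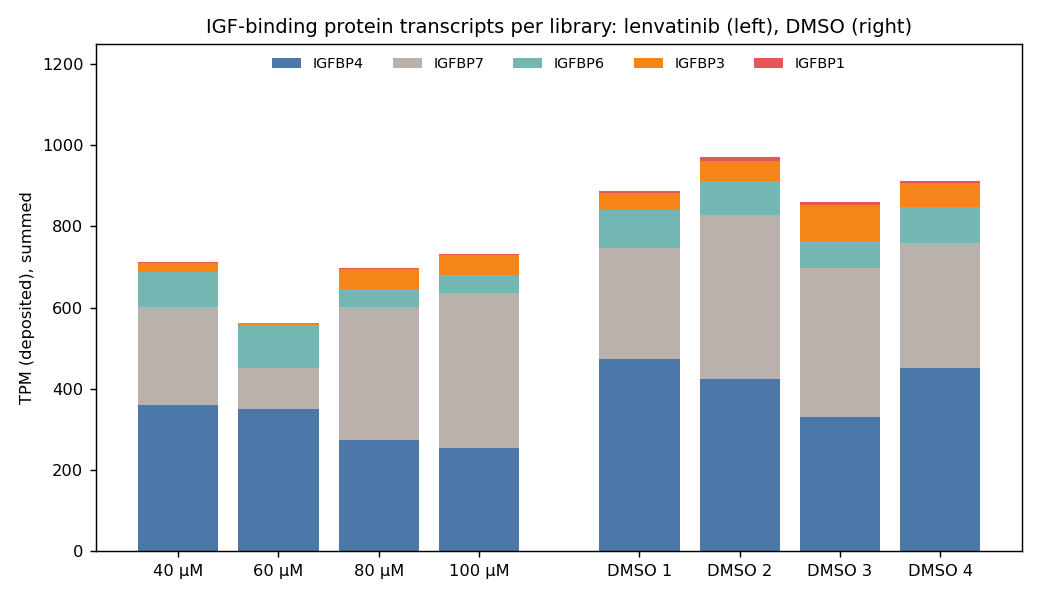
Deposited TPM of the IGF-binding proteins stacked per library, lenvatinib by dose on the left and DMSO on the right (vertical axis in TPM, from 0). The summed height is 561 to 732 TPM in the lenvatinib libraries and 860 to 971 TPM in the DMSO libraries, and IGFBP4 and IGFBP7 make up most of it. With TMM-scaled CPM the sums of the arms overlap.

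None of the receptors passed the test with all 8 libraries. IGF1R and IGF2R did not overlap between arms with TMM or DESeq2 size factors, did overlap with library totals and TPM, and INSR overlapped with each scaling. IGF1R, the signalling receptor for IGF1 and IGF2 (ENSG00000140443, chromosome 15, 98648971 to 98964530), was measured at 170, 115, 183 and 190.2 CPM at 40, 60, 80 and 100 µM, against 210.0, 204, 243 and 209 CPM in DMSO libraries 1 to 4. All treated libraries were below all DMSO libraries, 100 µM and DMSO 2 being the nearest. The log2 fold change was -0.39 ± 0.26 (SE; edgeR adjusted p = 0.874), -0.25 ± 0.12 with the covariate (edgeR adjusted p = 0.275) and -0.22 ± 0.07 with the covariate and without 60 µM (edgeR adjusted p = 0.0468). Genes antisense to IGF1R are annotated in its locus. Its deposited TPM did not follow the counts: 8776 and 8397 counts at 80 and 100 µM stood beside 72.5 and 40.3 TPM. The TPM of IGF1R per count, scaled to each library, varied 2.39-fold between libraries, whereas the median gene with at least 100 counts on average varied 1.14-fold. On TPM the IGF1R arms overlapped.

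IGF2R, the mannose 6-phosphate receptor that takes up IGF2 for breakdown in lysosomes (ENSG00000197081, chromosome 6, 159969099 to 160111504), was measured at 110, 34.4, 129 and 120.2 CPM at 40, 60, 80 and 100 µM. In DMSO libraries 1 to 4 it stood at 153, 162, 192 and 182 CPM, so the arms did not overlap and 60 µM was by far the lowest. The log2 fold change was -0.81 ± 0.40 (SE; edgeR adjusted p = 0.874) and -0.55 ± 0.22 with the covariate (edgeR adjusted p = 0.215). It was -0.48 ± 0.08 with the covariate and without 60 µM (edgeR adjusted p = 0.00326), and -0.48 ± 0.09 with the 80 and 100 µM libraries alone (edgeR adjusted p = 0.0102). INSR, the insulin receptor (ENSG00000171105, chromosome 19, 7112255 to 7294034), was measured at 8.68, 7.08, 21.3 and 21.2 CPM at 40, 60, 80 and 100 µM, against 8.12, 17.5, 22.7 and 10.4 CPM in DMSO libraries 1 to 4. Both arms held low and high libraries, and the log2 fold change was -0.01 ± 0.52 (edgeR adjusted p = 0.998). With the covariate it was 0.43 ± 0.22 (edgeR adjusted p = 0.305), and without 60 µM as well 0.41 ± 0.12 (edgeR adjusted p = 0.0340). Within a library, INSR had 0.116 and 0.111 counts per IGF1R count at 80 and 100 µM, above the DMSO range of 0.0387 to 0.0932, and 0.0509 and 0.0615 at 40 and 60 µM, inside it. Here too the GC slope does not cancel, as log2 CPM changed per unit of it by -0.65 for INSR and -0.294 for IGF1R.

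The adaptors IRS1 and IRS2 couple the receptors to phosphoinositide 3-kinase. Their 250 bases upstream of the RefSeq start (GRCh38.p14, minus strand, written 5′ to 3′ on the gene's strand) are shown because IRS2 is a known FOXO target, with its paralog IRS1 beside it. Capitals mark a match to the insulin response core CAAAACA or to the FOXO motif GTAAACA on either strand.
IRS2, chr13:109786584-109786833: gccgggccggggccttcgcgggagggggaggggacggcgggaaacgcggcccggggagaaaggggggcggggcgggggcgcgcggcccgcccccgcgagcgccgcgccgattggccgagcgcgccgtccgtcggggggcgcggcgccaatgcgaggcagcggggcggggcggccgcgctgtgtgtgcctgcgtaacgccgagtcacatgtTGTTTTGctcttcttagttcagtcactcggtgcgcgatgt
IRS1, chr2:226799821-226800070: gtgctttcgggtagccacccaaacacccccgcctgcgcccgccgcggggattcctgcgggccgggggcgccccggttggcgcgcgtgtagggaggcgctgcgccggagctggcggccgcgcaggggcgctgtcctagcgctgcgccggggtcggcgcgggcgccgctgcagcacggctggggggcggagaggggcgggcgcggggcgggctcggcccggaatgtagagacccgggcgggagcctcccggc
The IRS2 stretch holds 1 match, CAAAACA read on the opposite strand as TGTTTTG, from 40 to 34 bases before the start, and the IRS1 stretch holds none. Of 35116 promoters in the table, 4.3% hold CAAAACA and 2.98% hold GTAAACA on either strand in these 250 bases. Promoters of 9 of the 10 genes were in the table. That of IGFBP1 was not, so IGFBP1 was not searched. Of the 9, IGFBP6 holds 1 GTAAACA and the others besides IRS2 hold neither motif. The IGFBP6 stretch (chromosome 12, 53097417 to 53097666) overlaps the gene position given above, and the match lies inside it. That of IGFBP3 (chromosome 7, 45921273 to 45921522) lies wholly inside the position given above. A match is a description of letters, and the data hold no measure of binding.

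IRS2 (ENSG00000185950, chromosome 13, 109752698 to 109786568) was measured at 34.5, 36.5, 77.4 and 68.4 CPM at 40, 60, 80 and 100 µM, against 39.8, 65.7, 95.6 and 51.4 CPM in DMSO libraries 1 to 4. IRS1 (ENSG00000169047, chromosome 2, 226731317 to 226799759) stood at 11.9, 14.8, 16.2 and 15.8 CPM with lenvatinib and at 15.8, 23.6, 32.4 and 14.9 CPM in DMSO. IRS2 spanned about the same levels in both arms, whereas IRS1 with TMM was nearly level over the 4 doses and overlapped only the 2 lowest DMSO libraries. With library totals IRS1 was not level, at 9.28, 9.04, 20.8 and 20.1 CPM over the doses, against 13.5, 27.4, 42.8 and 14.6 CPM in DMSO libraries 1 to 4. The log2 fold changes were -0.22 ± 0.39 for IRS2 (SE; edgeR adjusted p = 0.876) and -0.56 ± 0.36 for IRS1 (edgeR adjusted p = 0.874). With the covariate they were 0.12 ± 0.21 and -0.39 ± 0.27 (edgeR adjusted p = 0.796 and 0.456). IRS1 was called in the GC-adjusted fit with the 80 and 100 µM libraries alone (-0.58 ± 0.15, edgeR adjusted p = 0.0319). In counts, IRS1 per IRS2 was 0.346, 0.405, 0.209 and 0.231 at 40, 60, 80 and 100 µM and 0.396, 0.359, 0.338 and 0.289 in DMSO libraries 1 to 4, so the 80 and 100 µM libraries lay under the DMSO range.

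FOXO3, the transcription factor that AKT holds in check (ENSG00000118689, chromosome 6, 108559835 to 108684774), was measured at 4.23, 4.83, 14.8 and 12.5 CPM at 40, 60, 80 and 100 µM. In DMSO libraries 1 to 4 it stood at 4.89, 12.3, 20.5 and 7.41 CPM, and the arms overlapped. The log2 fold change was -0.31 ± 0.61 (SE; edgeR adjusted p = 0.880) and 0.22 ± 0.33 with the covariate (edgeR adjusted p = 0.764). FOXO3 has a near-identical copy in the genome, so reads may have been split between them, and its messenger level says nothing of its place in the cell.

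Of the 10 genes, 8 were lower in libraries with a higher GC slope, and IGFBP4 and IGFBP6 were higher. Pearson's r of the log2 CPM with the GC slope over the 8 libraries was -0.60 to -0.88 in these 8 genes, and 0.80 and 0.88 in IGFBP4 and IGFBP6. Over all genes tested the median r was -0.54, and 55.3% had an r beyond 0.9 in either direction, which none of the 10 had. IGF1R, IGF2R, IGFBP1 and IGFBP3 had pairwise r of 0.913 to 0.988, with 60 µM the lowest library for each. That block rests in part on 60 µM, where the 0 of IGFBP1 enters at a value set by the prior count of 1. Without that library IGF1R, IGF2R and IGFBP3 had r of 0.882 to 0.916 with each other and 0.520 to 0.663 with IGFBP1 (7 libraries). INSR, IRS2 and FOXO3 had r of 0.958 to 0.997 over the 8 libraries and 0.949 to 0.997 without 60 µM. FOXO3 was the tested gene whose pattern was most like that of IRS2 (r = 0.9969), with YOD1 next (0.9968). The gene nearest to FOXO3 was ZNF451 (0.9972). Such values were common: the nearest gene had an r of 0.976 for IRS1 and at least 0.9922 for every other member. All points share libraries, depth and GC slope, and these r are descriptions.

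**Figure D4:**
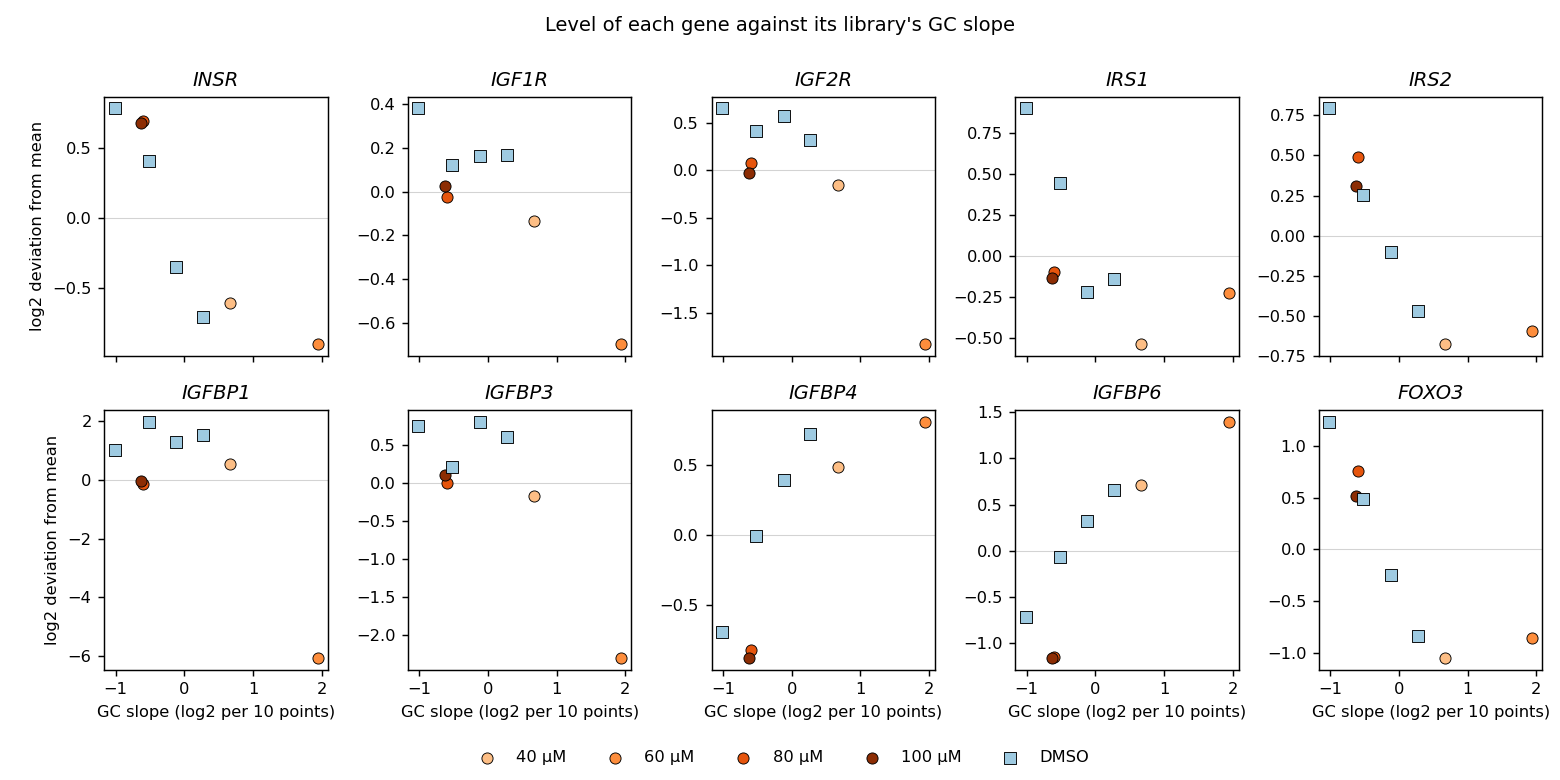
Log2 deviation of each gene from its mean over the 8 libraries (vertical axes) against the library's GC slope (horizontal axis), for lenvatinib (circles, darker with dose) and DMSO (squares). At 80 and 100 µM, IGFBP1, IGFBP3, IGFBP4, IGFBP6, IGF1R, IGF2R and IRS1 lie below DMSO 2, the nearest in GC slope, and below DMSO 3. INSR, IRS2 and FOXO3 at 80 and 100 µM lie between DMSO 2 and DMSO 3.

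Setting lenvatinib libraries beside the DMSO library nearest in GC slope gave the same picture for IGFBP1, with no test. At 40 µM IGFBP1 was -1.02 on the log2 scale relative to DMSO 1, and at 80 and 100 µM it was -2.11 and -2.01 relative to DMSO 2. DMSO 2 had the highest IGFBP1 of the DMSO libraries, at 7.95 CPM, against 5.91, 4.06 and 4.91 CPM in DMSO 1, 3 and 4. Even the nearest pair at 40 µM differed in GC slope, at 0.67 and 0.27. No DMSO library lies near 60 µM. IGF1R, IGF2R, IRS1, IGFBP3 and IGFBP4 were also lower in all 3 of these pairs. For IRS1 the differences were -0.40, -0.54 and -0.58, and for IGFBP4 they were -0.24, -0.82 and -0.88. IGFBP6 differed by 0.06, -1.08 and -1.09, and INSR was higher in all 3, by 0.10, 0.28 and 0.27. Of all genes tested, 25.4% were lower and 20.5% higher in all 3 pairs, whose median differences were -0.04, -0.03 and -0.02.

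Within the lenvatinib arm no dose trend was called. The edgeR test of a slope per 20 µM called 0 of 11827 genes (0%). An unadjusted p under 0.05 was reached by 875 (7.4%), and of the 10 by IGFBP6 alone. Slopes ran from -0.87 ± 0.34 for IGFBP6 (SE; edgeR adjusted p = 0.295) and -0.59 ± 0.27 for IGFBP4 to 0.65 ± 0.36 for FOXO3. With the GC slope as a further covariate they were -0.24, -0.14 and 0.12.

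The rest of the pathway was described from lists of ligands, receptors, binding proteins and their proteases, adaptors, the PI3K, AKT and mTOR branch, FOXO factors, FOXO targets and IGF2 mRNA-binding proteins. INS and IGF2 had 0 reads in every library and IGF1 had 10 reads in all, so no ligand could be tested at this depth. Of the 58 other listed genes that were tested, edgeR called 0 without the covariate, 1 lower and 0 higher with it, which is near the 1.47% of all genes called lower. Their median log2 fold change was -0.05 without the covariate and 0.03 with it, against -0.11 and -0.06 over all genes tested. The gene that fell was PAPPA, the protease that cleaves IGFBP4 and releases IGF from it. It was measured at 2.48, 2.25, 4.10 and 4.08 CPM at 40, 60, 80 and 100 µM, against 6.34, 7.98, 11.8 and 6.70 CPM in DMSO libraries 1 to 4, with no overlap. Its log2 fold change was -1.07 ± 0.20 with the covariate (SE; edgeR adjusted p = 0.0333) and -1.34 ± 0.44 without it (edgeR adjusted p = 0.874). The call was lost without 80 or 100 µM (edgeR adjusted p = 0.242 and 0.227) and without DMSO 1, 2, 3 or 4 (0.121, 0.102, 0.0601 and 0.120), at log2 fold changes of -0.99 to -1.11.

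Of the 22 tested genes of the PI3K, AKT and mTOR branch 0 were called, with a GC-adjusted median of 0.02 and a range of -0.60 to 0.79. Of the 12 adaptors and proximal regulators, IRS1 and IRS2 among them, 0 were called (median -0.06). Of the 19 FOXO targets, which include IGFBP1, IRS2 and INSR, 0 were called. Their GC-adjusted log2 fold changes were positive in 14 and negative in 5 (median 0.29), against 5114 and 6713 over all genes tested. Without the covariate 6 were positive and 13 negative (median -0.09), against 5186 and 6641, so the split turned with the covariate. With 2.9% of all genes called, 0 calls in lists of this size say little about them. Apart from the 10 genes, 3 listed genes lay lower with TMM in every treated library than in any DMSO library. They were PAPPA, the mitochondrial superoxide dismutase SOD2 and IGF2BP1. Another 2, FOXO4 and the receptor ERBB3, lay higher. Whether these genes stay separate with other scalings is not given here, and such separation can depend on the scaling. They were named after their values were seen, and 3 and 2 of 58 are near the 3.38% and 3.08% of all genes.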

How the data were processed

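RNA sequencing of 8 MHCC-97H libraries was analysed, 4 with lenvatinib (1 per dose) and 4 with DMSO. Per the file headers, the authors deposited read counts, TPM and FPKM for 20263 genes. HISAT2, StringTie, bedtools, FastQC and the build GRCh38 appear in the submitters' processing notes. Tool versions, the annotation release and the strand setting are not given in the sources here, so reads of antisense partners (IGF1R, IGF2R and IRS2 have annotated ones) cannot be told apart. Deposited FPKM are a constant multiple of TPM within a library and were not tested.

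The 11827 genes averaging 1 CPM or more, which hold all 10 genes followed here, were tested on the deposited counts with edgeR 4.0.16 under R 4.3.3 (TMM; quasi-likelihood with robust dispersion; 6 residual degrees of freedom, or 5 once the GC slope or a dose term is added). SEs are the log2 fold change over the square root of F. GC content is that of the longest GENCODE v29 transcript, 4 tested genes having none. Positions are the file's own. Promoters are RefSeq's on GRCh38.p14. The fits were also run on simulated counts with known changes. Those counts were built on the libraries' own GC slopes, so they cannot show whether that covariate suits the real libraries.

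Libraries of 10181973 to 37384578 counts place 3 counts, the most that a count of 0 allows, at 0.0803 to 0.295 CPM by library totals, for counting error only. The 10 genes, the lists and the GC covariate were chosen with earlier results of these data known. All 10 genes are named; of listed genes, those called with the smallest p are (up to 4 per list), and for likeness the 2 highest r. Alternatives were DESeq2 1.42.0, limma-voom (limma 3.58.1), other scalings and filters (none, 5 CPM), a covariate from the DMSO libraries, a block on the title number, leaving out libraries and other dose terms. Chosen after seeing the data were limma on log2(TPM + 1), pairs of libraries near in GC slope, levels under other scalings and correlations without 60 µM. Whether the title numbers pair the samples is not in the labels.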

Additional observations from a re-analysis of the deposited data

Results flagged for a closer look

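The TMM-scaled CPM of IGF1R in DMSO held 1 library far from the other 3. DMSO 3 stood at 243 CPM, and the other DMSO libraries at 204, 209 and 210.0 CPM. The gap to the nearest library was 0.839 of the group's range, past Dixon's critical value for 4 samples. Of 20 groups looked at (10 genes in 2 arms), this is 1, and chance flags about 1 in 20. DMSO 3 also had the lowest GC slope of the 8 libraries. Without it the IGF1R log2 fold change was -0.33 (edgeR, no covariate) and -0.25 (edgeR, GC-adjusted), against -0.39 and -0.25 with it.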

How the results depend on the processing

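Without the GC covariate DESeq2 called 94 genes, none of the 10, and each other alternative called 0. With it (343 genes and 1 of the 10 as reported), the calls depended on the setting. They were 1981 genes and 4 of the 10 by DESeq2, 760 and 2 by limma-voom, 922 and 2 with DESeq2 size factors (335 higher, 587 lower), 674 and 2 with library totals (421 higher, 253 lower), 585 and 2 by limma on log2(TPM + 1), and 2450 and 5 with 80 and 100 µM alone. With no filter 265 of 15588 genes and 0 of the 10 were called. A 5 CPM filter gave 430 of 9669 genes and 2 of the 9 members it left. The DMSO component as covariate gave 408 of 11827 genes and 2 of the 10. Leaving out 1 library gave 0 (without 80 µM) to 2768 genes (without 60 µM) and 0 to 7 of the 10. It gave 985 genes without 40 µM, 10 without 100 µM, and 28, 57, 192 and 21 without DMSO 1, 2, 3 and 4. The cause of these changes was not tested. With the covariate IGFBP6 was negative in all 18 alternatives (-0.945 to -0.675) and called in 11, and IGFBP4 in all 18 (-0.839 to -0.592) and called in 10. PAPPA was called in 10 of 18 (-1.125 to -0.421). IGFBP1, which a 5 CPM filter removes, was negative in all 17 (-1.993 to -1.10) and called in 3. IGF2R was called in 4 of 18, IGFBP3 in 2, and INSR, IGF1R and IRS1 in 1 each. IRS2 and FOXO3 were called in 0 of 18.

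Signs turned as follows, the cause not being tested. Without the covariate, INSR was 0.004 by DESeq2, 0.153 by limma-voom, 0.002 with DESeq2 size factors and 0.565 with 80 and 100 µM alone. IGFBP6 was -0.34 by limma-voom, -0.159 with library totals, -0.334 on TPM and -1.258 with 80 and 100 µM alone, where IRS2 was 0.24 and FOXO3 0.308. Leaving out 1 library gave -0.25 to 0.284 for INSR, -0.442 to 0.054 for IRS2, -0.452 to 0.127 for IGFBP4, -0.376 to 0.515 for IGFBP6 and -0.644 to 0.157 for FOXO3. With the covariate, IGF1R was 0.114 on TPM, and IRS2 was -0.002 to 0.22 when 1 library was left out. The dose slope was -0.063 for IGF1R, -0.237 for IGF2R, -0.019 for IRS1 and -0.201 for IGFBP3 with the GC covariate, and for IGFBP1 0.186 with library totals and -0.334 to 1.878 when 1 library was left out.

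Title numbers 1 to 4 are shared between arms. Over all genes tested, deviations from the arm mean in same-numbered libraries correlated at 0.575, -0.451, 0.833 and -0.591. The variance mostly tracked GC content, so these values cannot tell whether the samples were paired, and the labels do not say. With that number as a replicate block, 345 genes and 2 of the 10 were called in the GC-adjusted fit (IGFBP3 at -0.72 and IGFBP6 at -0.75), PAPPA was not (edgeR adjusted p = 0.0750), and IGFBP6 without the covariate was -0.11. Each dose is 1 library, and 60 µM, where IGFBP1 had 0 reads, is the least deep.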
